A study of Mus musculus with 35 samples.

Results

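Livers of 3-week-old mice that lacked E2f7 in hepatocytes were set directly against livers of the same age that lacked E2f8. The comparison held 8 of the 35 arrays of the series, 4 from each single knockout, and every one of the 18193 measured genes. No wild-type array entered its test. The E2f7 knockout carried Albumin-Cre with both E2f7 alleles flanked by loxP sites, and the E2f8 knockout carried Albumin-Cre with both E2f8 alleles floxed. All groups were on the FVB background. A double knockout with both genes floxed (4 arrays) and wild-type controls (3 arrays, whose labels name no Cre) of the same age are given as levels only. The same single knockouts at 2 months (4 arrays each) served for a comparison of ages. Albumin-Cre acts in hepatocytes and, early in life, in cells that can also form bile ducts, so endothelial, Kupffer, stellate and blood cells of these whole-liver samples keep both genes. The series' design text states that deletion was checked by PCR on DNA of each sample. The labels do not say whether the replicates were separate animals, so the p-values measure the spread between these samples.

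E2F7 and E2F8 are the atypical members of the E2F family. They carry a pair of DNA-binding domains, bind without a DP partner, and act mainly as repressors of genes that classical E2Fs switch on for DNA synthesis. They can form homodimers and heterodimers, and each can stand in for the other in many tissues. In liver they are known for their part in making hepatocytes polyploid around weaning, when the diet changes from milk to solid food.

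All values are log2 signals of the Affymetrix array after robust multi-array averaging (RMA), 1 probe set per gene, and a difference is the mean of the E2f7 knockout minus the mean of the E2f8 knockout. A gene passed at a limma p below 0.05 after Benjamini-Hochberg adjustment over all 18193 genes, and "rose", "fell", "higher" and "lower" refer to that test unless values alone are given. The E2f7 knockout arrays correlated with one another at 0.9957 to 0.9966 (mean of each array with its group) and the E2f8 knockout arrays at 0.9928 to 0.995. E2f8 knockout replicate 2 was the least like its own group, at 0.9928 against 0.9929 with the other group. A control for RNA degradation, the 3' minus 5' signal of Gapdh and Actb, lay between 1.06 and 1.12 in the E2f7 knockout and between 0.973 and 1.2 in the E2f8 knockout (exact two-sided permutation p = 0.514, smallest possible 0.0286). The mean of the Y-linked genes lay between 6.74 and 6.95 and between 6.73 and 6.99 in the groups (exact permutation p = 0.571).

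The livers that lacked E2f7 and those that lacked E2f8 differed in 235 genes (1.29% of those tested). Of these, 121 (0.665%) were higher after E2f7 loss and 114 (0.627%) were higher after E2f8 loss. The differences were mostly small, with a median size of 0.57 among the genes that passed, and 27 genes differed by 1 or more, 18 higher and 9 lower in the E2f7 knockout. The median over all genes was 0.00. An unadjusted p below 0.05 was reached by 2496 genes (13.7%). These shares of all genes, 1.29% and 13.7%, stand beside the counts given below for each list. The arrays of the groups did not overlap in 1548 genes (8.51%), among them 234 of the 235. With 1 array left out, which also lowers the power of the test, the number of genes that passed changed. It was 438 without E2f8 knockout replicate 2 and 179 without replicate 1 of that group, but 108 and 132 without its replicates 3 and 4, and 150, 136, 108 and 103 without E2f7 knockout replicates 1, 2, 3 and 4. Each such fit, here and below, left out 1 array at a time. Of the 235, 73 passed in each of these 8 fits, 42 higher and 31 lower after E2f7 loss, and none changed direction. With the wild-type and double knockout arrays added to the estimate of the spread, 137 genes passed, 120 of them among the 235.

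**Figure D1:**
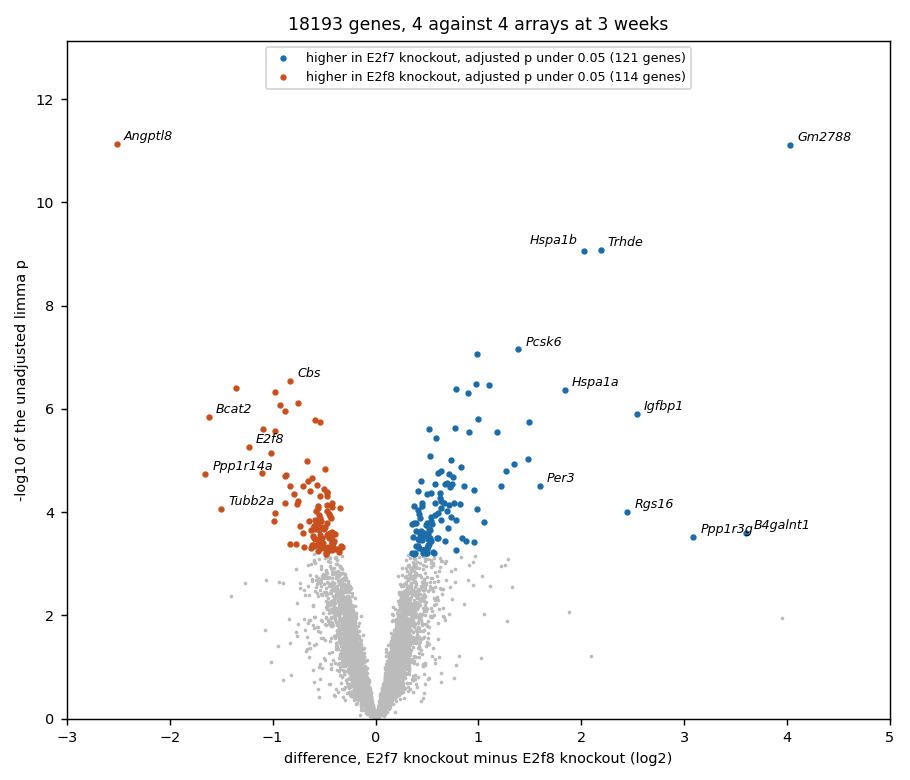
Difference between the E2f7 and the E2f8 knockout at 3 weeks (horizontal axis, log2, positive where the E2f7 knockout is higher) against the -log10 of the unadjusted limma p (vertical axis) for 18193 genes. Blue and orange points are the 121 and 114 genes that passed, with Gm2788 and Angptl8 farthest up on either side.

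The E2f8 probe set read 7.45, 7.71, 7.54 and 8.18 in the E2f7 knockout and 9.29, 8.91, 8.85 and 8.75 in the E2f8 knockout. The signal was thus higher where E2f8 was floxed and recombined, with no overlap (difference -1.23, SE 0.16, adjusted p = 0.00322). Wild-type livers read 6.45 to 7.79 and double knockout livers 8.24 to 9.56. A second E2f8 probe set differed by -0.99 and did not pass. The files do not place these probes relative to the deleted exons, so they check neither the deletion nor the labels. Gm2788 encodes a long non-coding RNA, and its RefSeq span overlaps that of E2f8; it ran the opposite way. It read 9.26, 9.89, 9.81 and 10.002 in the E2f7 knockout and 5.82, 5.60, 5.47 and 5.93 in the E2f8 knockout, and this was the largest difference of all 18193 genes (4.03, SE 0.15, adjusted p = 7.05e-08, fold 16.3). The double knockout was as low as the E2f8 knockout (5.65 to 5.98), and wild-type livers were at 9.0 to 9.75. Low Gm2788 therefore went with the floxed E2f8 allele in all 8 arrays that carry it. E2f7 itself was dim in every group, at 4.69 to 4.85 in its own knockout, 4.88 to 5.29 in the E2f8 knockout and 4.62 to 4.89 in wild type (difference -0.33, SE 0.10, adjusted p = 0.135).

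The other 11 genes of the E2F family list did not pass. The activators E2f1 (0.28), E2f2 (-0.24) and E2f3 (0.02), the repressors E2f4 (-0.01), E2f5 (0.11) and E2f6 (0.01), the DP partners Tfdp1 (-0.07) and Tfdp2 (0.19), and the pocket proteins Rb1 (-0.24), Rbl1 (0.25) and Rbl2 (0.09) had adjusted p-values from 0.169 to 0.982. In all, 1 of the 13 genes of the list passed, and 7 of 13 had a positive difference (median 0.01). An unadjusted p below 0.05 in limma was reached by 6 of 13 (46.2%), against 13.7% of all genes. Larger shares were found for the unfolded protein response (72.7%), insulin and feeding (62.5%) and fatty acid and triglyceride synthesis (59.3%).

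**Figure D2:**
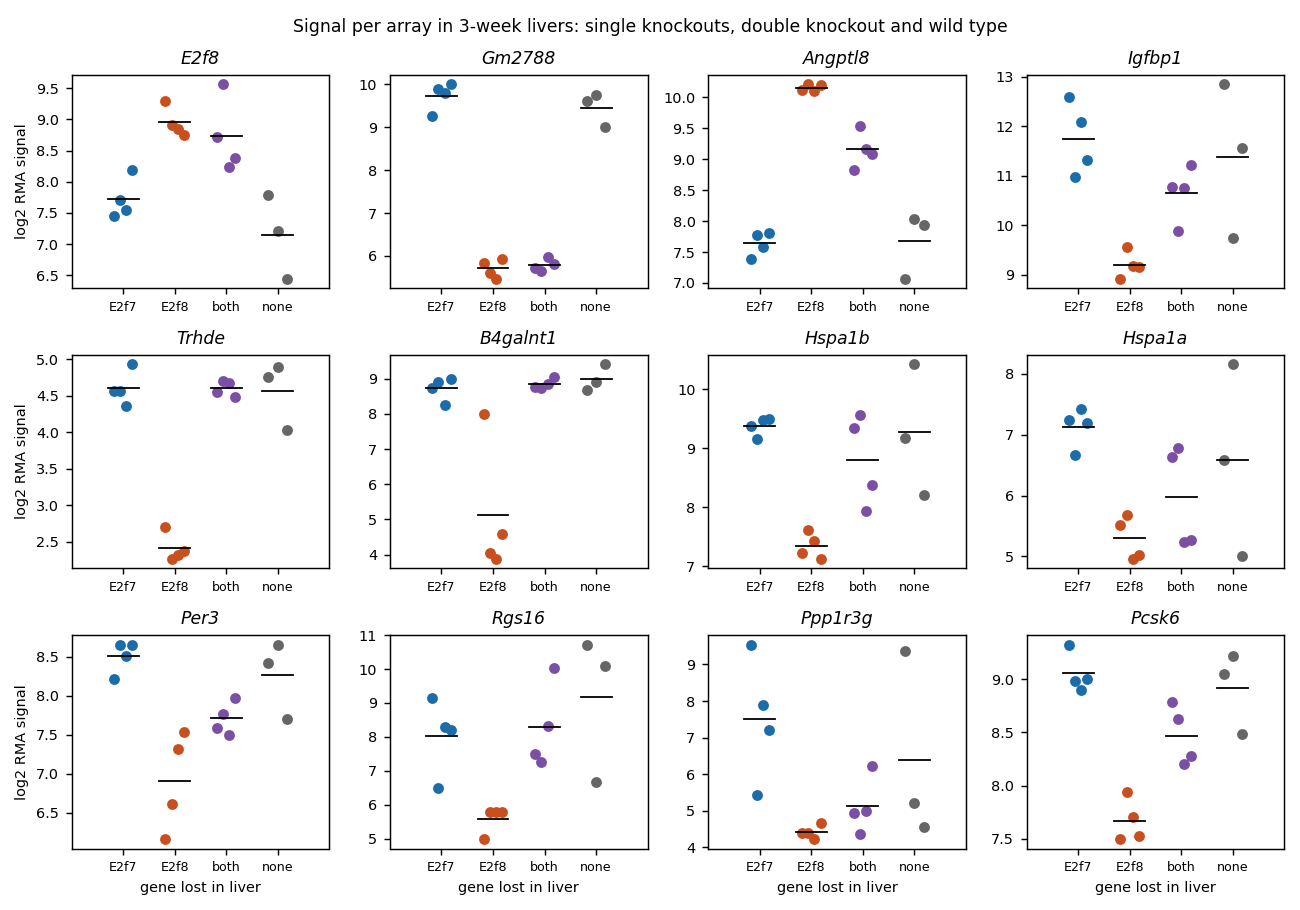
Log2 RMA signal (vertical axes) of 12 genes in each 3-week array, by the gene lost in liver (E2f7, E2f8, both or none); points are arrays and bars are group means. Gm2788 is low wherever E2f8 is lost, Angptl8 is highest after E2f8 loss alone, and Trhde is low in the 4 E2f8 knockout arrays only.

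The E2f8 knockout stood apart from all other arrays in more genes than the E2f7 knockout did. In 63 of the 235, all 4 E2f8 knockout arrays lay outside the range of the 11 other arrays at 3 weeks (27 above and 36 below), whereas the 4 E2f7 knockout arrays did so in 4. Over all genes the counts were 194 (1.07%) and 37 (0.203%). These counts use the values that also decided the test, and are a description. The 4 genes in which the E2f7 knockout stood apart were Acacb (acetyl-CoA carboxylase 2), Gna14 and Phlda3 (a p53-induced inhibitor of AKT), all above the others, and Slc30a1, the main zinc exporter of the plasma membrane, below them. Slc30a1 lay between 8.48 and 8.64 in the E2f7 knockout and between 8.71 and 9.32 elsewhere. Gna14 lay between 5.98 and 6.37 in the E2f7 knockout and reached at most 5.98 elsewhere. Acacb lay between 9.95 and 10.37 and reached 9.95 in wild-type replicate 1. Phlda3 lay between 6.88 and 7.10 and reached at most 6.86 elsewhere. The margins of Gna14, Acacb and Phlda3 were thus narrow.

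Among the genes higher after E2f7 loss than after E2f8 loss, Trhde had one of the clearest separations. Trhde encodes the ectoenzyme that inactivates thyrotropin-releasing hormone. Its signal was 4.56, 4.56, 4.36 and 4.93 in the E2f7 knockout and 2.70, 2.27, 2.32 and 2.37 in the E2f8 knockout (difference 2.19, SE 0.13, adjusted p = 3.98e-06). Both groups were dim, below the array medians of 6.11 to 6.155, and the gene has a single probe set here. The double knockout (4.48 to 4.70) and wild type (4.02 to 4.90) overlapped the E2f7 knockout, so the gene was low after E2f8 loss alone and not where both genes were lost. B4galnt1, the enzyme that makes the gangliosides GM2 and GD2, showed the same layout on 3 of 4 arrays. It read 8.75, 8.91, 8.26 and 9.0 in the E2f7 knockout and 7.99, 4.05, 3.88 and 4.58 in the E2f8 knockout (difference 3.60, SE 0.70, adjusted p = 0.0309). E2f8 knockout replicate 1 lay near the wild-type range of 8.68 to 9.41, a second probe set differed by 0.28, and the gene missed the threshold without any one of the E2f7 knockout arrays or of E2f8 knockout replicates 3 and 4 (adjusted p from 0.0699 to 0.0975).

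Pcsk6, a secreted proprotein convertase, read 9.33, 8.99, 8.90 and 9.0 after E2f7 loss and 7.50, 7.94, 7.70 and 7.53 after E2f8 loss (1.39, SE 0.12, adjusted p = 0.000257). Abcc6, a hepatocyte transporter needed for ATP release, read 9.33, 9.45, 9.0 and 9.54 against 8.05, 8.52, 8.12 and 7.89 (1.19, SE 0.14, adjusted p = 0.00176). In wild type Pcsk6 lay at 8.48 to 9.22 and Abcc6 at 8.56 to 9.58, again nearer to the E2f7 knockout. Depp1, a gene switched on by FOXO factors, was higher by 1.48 (adjusted p = 0.00491). The nuclear receptor Esrrg was higher by 1.27 (adjusted p = 0.00705), but its other probe sets differed by -0.06 and -0.27 without passing. Cnmd (1.35), Ddias (1.22) and Gdap10 (1.49) also passed, and the glutathione-degrading enzyme Chac1 was higher by 1.10 with all 4 E2f7 knockout arrays at 6.97 to 7.34 and all 4 E2f8 knockout arrays at 5.89 to 6.30. None of these 8 genes lost its call when any 1 array was left out.

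The largest difference in the other direction, higher after E2f8 loss, was that of Angptl8, a feeding-induced liver hormone. It read 7.39, 7.77, 7.58 and 7.81 in the E2f7 knockout and 10.12, 10.21, 10.09 and 10.20 in the E2f8 knockout (difference -2.52, SE 0.10, adjusted p = 7.05e-08, fold 5.72). Wild-type livers lay at 7.07 to 8.03, within or near the E2f7 knockout, and the double knockout lay between, at 8.83 to 9.54. The E2f8 knockout arrays of this gene were also the most alike, spanning 10.09 to 10.21. Bcat2, which starts the breakdown of branched-chain amino acids in mitochondria, read 4.04, 5.07, 4.41 and 4.77 against 6.14, 5.99, 6.22 and 6.43 (-1.62, SE 0.18, adjusted p = 0.00138). The double knockout sat with the E2f8 knockout for Bcat2 (5.60 to 6.40), and the 3 wild-type arrays ran from 4.11 to 6.22 and so overlapped both knockouts.

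Genes of metal handling were among those higher after E2f8 loss. Slc30a10, a manganese exporter, read 7.96, 7.77, 7.80 and 7.35 after E2f7 loss and 9.21, 8.89, 8.70 and 8.48 after E2f8 loss (-1.10, SE 0.16, adjusted p = 0.00732). The double knockout (7.51 to 8.08) stayed below the E2f8 knockout. Tfrc, the transferrin receptor through which cells take up iron, read 8.72, 8.94, 8.85 and 8.80 against 10.16, 9.82, 10.18 and 9.53 (-1.10, SE 0.13, adjusted p = 0.00171), and its other probe sets differed by -0.78 and -0.67 without passing. These genes were picked out here for their role after their values were seen.

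Further genes higher after E2f8 loss were the myosin phosphatase inhibitor Ppp1r14a (-1.66, adjusted p = 0.00732), the tubulin gene Tubb2a (-1.50, adjusted p = 0.0166), the ubiquitin ligase Pdzrn3 (-1.36, adjusted p = 0.000653) and Ccdc30 (-0.99, adjusted p = 0.0225). The Notch target Hes1 differed by -0.97 (adjusted p = 0.000655). Inhbe, which encodes the liver-made activin E subunit, differed by -0.97 (adjusted p = 0.00176). The double-strand break ligase Lig4 (-0.93) and the kinase Sgk2 (-0.88) completed the 15 largest. Tubb2a lost its call without E2f7 knockout replicate 3 or 4 (adjusted p at most 0.0624), and Ccdc30 without E2f7 knockout replicate 2, 3 or 4 and without E2f8 knockout replicate 3 (at most 0.0784).

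Genes set by feeding, fasting and insulin moved in both directions. The list mixes genes raised by feeding, such as Angptl8, with genes that insulin represses, such as Igfbp1. Opposite signs within it therefore need not be opposite responses. Of 16 measured genes of the insulin and feeding list, 2 were higher after E2f7 loss and 1 lower (median 0.15). Igfbp1, a secreted binder of insulin-like growth factors that insulin represses, read 12.59, 10.98, 12.09 and 11.31 in the E2f7 knockout and 8.92, 9.56, 9.17 and 9.15 in the E2f8 knockout (2.54, SE 0.28, adjusted p = 0.00126, fold 5.82). The groups did not overlap, and wild type spread from 9.74 to 12.85. Rgs16, a brake on G protein signalling, read 9.14, 6.48, 8.29 and 8.20 against 4.99, 5.78, 5.77 and 5.78 (2.45, SE 0.43, adjusted p = 0.0177). Its other probe sets differed by 1.28 and 1.86 without passing. Rgs16 lost its call without E2f7 knockout replicate 3 or 4 and without E2f8 knockout replicate 3 (adjusted p from 0.0519 to 0.0718), and its wild-type arrays ran from 6.67 to 10.72. The member that fell was Angptl8. The insulin receptor substrate Irs2 had a difference of 1.29 and an adjusted p of 0.057, above the threshold. Igfbp1 and Rgs16 were both lowest on replicate 2 within the E2f7 knockout (10.98 and 6.48) and within wild type (9.74 and 6.67). The feeding state at collection is not in the labels, and its part in these differences was not tested.

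Glycogen genes that passed went both ways. Of 19 measured genes of glycolysis and glycogen, 2 were higher and 1 lower after E2f7 loss (median 0.03). Gys2, liver glycogen synthase, read 10.09, 9.997, 10.08 and 10.24 against 9.47, 9.59, 9.51 and 9.46 (0.59, SE 0.07, adjusted p = 0.00218), and all 4 E2f8 knockout arrays lay below every other array at 3 weeks. Ppp1r3g, a subunit that brings protein phosphatase 1 to glycogen, read 9.54, 5.42, 7.89 and 7.21 against 4.40, 4.40, 4.23 and 4.66 (3.09, SE 0.61, adjusted p = 0.0331). The E2f7 knockout arrays of Ppp1r3g were far apart, and the call was lost without E2f7 knockout replicate 3 or 4 and without E2f8 knockout replicate 1, 3 or 4 (adjusted p from 0.0703 to 0.11). Ppp1r3b, another such subunit, went the other way (-0.59, SE 0.11, adjusted p = 0.0256) and lost its call without E2f7 knockout replicate 2, 3 or 4 and without E2f8 knockout replicate 3 or 4 (adjusted p from 0.0571 to 0.0909). Of 18 measured genes of gluconeogenesis and fasting, 1 passed, Igfbp1 again (median 0.08).

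Of the genes of fatty acid and triglyceride synthesis, Fasn, Gpam and Acacb were higher after E2f7 loss. Of 27 measured genes, 25 had a positive difference, 3 passed, and in 11 the E2f7 knockout arrays all lay above the E2f8 knockout arrays (783 genes, 4.3%, did so over the array). Their median was 0.32 against 0.00 for all genes, and 0.20 without E2f8 knockout replicate 2. Fasn, fatty acid synthase, read 11.94, 12.56, 12.06 and 12.31 against 11.11, 11.34, 11.50 and 11.65 (0.82, SE 0.14, adjusted p = 0.0149). Gpam, which adds the first acyl chain to glycerol phosphate, differed by 0.61 (SE 0.09, adjusted p = 0.00732), and Acacb by 0.58 (SE 0.10, adjusted p = 0.0193). Fasn (adjusted p = 0.0624 without E2f7 knockout replicate 4) and Acacb (0.0541 without E2f8 knockout replicate 3) each lost the call in 1 fit that left out 1 array. Elovl6 (1.03, adjusted p = 0.086), Pnpla3 (1.11, 0.10) and Acly (0.56, 0.11) did not pass. Within the double knockout Fasn read 12.49 and 12.46 on replicates 1 and 2 but 11.28 and 11.60 on replicates 3 and 4, a gap as wide as that between the single knockouts. When those arrays and wild type entered the estimate of the spread, Fasn and Acacb missed the threshold (adjusted p = 0.296 and 0.44). Of 20 cholesterol synthesis genes, 16 had a positive difference (median 0.11) and none passed in limma. An unadjusted p below 0.05 was reached by 4 (20%, against 13.7% of all genes). Hsd17b7 (0.44, adjusted p = 0.18) and Pmvk (0.30, adjusted p = 0.2) came nearest to passing. Of 26 genes of PPAR alpha and fatty acid oxidation 1 passed, Plin5, a lipid droplet coat protein (-0.60, SE 0.11, adjusted p = 0.0254, lost without E2f7 knockout replicate 2, 3 or 4 and without E2f8 knockout replicate 3, at most 0.0866).

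The chaperone genes Sdf2l1, Creld2, Hyou1 and Dnajb11 of the endoplasmic reticulum were lower after E2f7 loss than after E2f8 loss. The unfolded protein response raises these genes when secretory proteins fold poorly. Of 22 measured genes, 19 had a negative difference, 4 passed, all lower, and 10 had E2f7 knockout arrays all below the E2f8 knockout arrays (765 genes, 4.2%, over the array). The median was -0.35. Sdf2l1, an endoplasmic reticulum chaperone partner, read 7.99, 8.48, 8.14 and 8.62 against 9.41, 9.11, 9.45 and 9.31 (-1.01, SE 0.13, adjusted p = 0.00416). Creld2, a disulphide isomerase-like protein of the same compartment, read 9.18, 9.47, 10.13 and 9.91 against 10.76, 10.80, 10.55 and 10.49 (-0.98, SE 0.17, adjusted p = 0.0186). Hyou1, a large HSP70-type chaperone, differed by -0.54 (adjusted p = 0.0369), and Dnajb11, a J-domain partner of BiP, by -0.45 (adjusted p = 0.0337). Hspa5, which encodes BiP, had a difference of -0.39 and did not pass (adjusted p = 0.065), and Dnajb9 had the opposite sign (0.57, adjusted p = 0.18).

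The level of this list was not the same on all arrays of the other groups. The mean over its 22 genes lay at 10.31 to 10.59 in the E2f7 knockout, 10.69 to 10.85 in the E2f8 knockout, 10.30 to 10.68 in wild type and 10.46 to 10.86 in the double knockout. Wild type thus overlapped the E2f7 knockout and stayed below the E2f8 knockout, whereas the double knockout spanned both. Double knockout replicates 1 and 2 lay at 10.86 and 10.82, and its replicates 3 and 4 at 10.53 and 10.46. The group means of the E2f7 and E2f8 knockouts were 10.49 and 10.79. Sdf2l1 kept its call in every fit that left out 1 array and with the 15 arrays of 3 weeks in the fit (adjusted p = 0.0373), where Creld2 (0.173), Hyou1 (0.144) and Dnajb11 (0.231) missed the threshold. Creld2 lost its call without E2f7 knockout replicate 2 and without E2f8 knockout replicate 1 or 3 (adjusted p at most 0.0582). Hyou1 lost it when any array other than E2f7 knockout replicate 4 and E2f8 knockout replicate 2 was left out (at most 0.102). Dnajb11 lost it for any array other than E2f7 knockout replicate 3 and E2f8 knockout replicate 2 (at most 0.106).

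The ER stress element, which ATF6 binds together with NF-Y, was searched for as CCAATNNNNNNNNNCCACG on both strands of the RefSeq promoter windows (250 bases before to 50 bases after the gene start, GRCm38.p6). It was in 0.119% of 32851 windows and in 8 of the 19 unfolded protein response genes that have a window. Among the genes that passed, 2 of 200 with a window held it. Creld2 (chr15:88819396-88819695, plus strand) held 1 match, on the minus strand, shown in capitals, while the window of Sdf2l1 (chr16:17132334-17132633, minus strand) held none. Both are printed because these genes had the largest differences of the list.
Creld2: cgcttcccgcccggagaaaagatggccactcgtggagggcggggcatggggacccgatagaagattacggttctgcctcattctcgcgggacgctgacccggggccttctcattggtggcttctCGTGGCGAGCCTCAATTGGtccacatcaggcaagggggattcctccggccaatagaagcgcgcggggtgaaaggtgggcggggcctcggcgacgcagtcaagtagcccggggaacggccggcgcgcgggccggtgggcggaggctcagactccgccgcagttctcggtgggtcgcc
Sdf2l1: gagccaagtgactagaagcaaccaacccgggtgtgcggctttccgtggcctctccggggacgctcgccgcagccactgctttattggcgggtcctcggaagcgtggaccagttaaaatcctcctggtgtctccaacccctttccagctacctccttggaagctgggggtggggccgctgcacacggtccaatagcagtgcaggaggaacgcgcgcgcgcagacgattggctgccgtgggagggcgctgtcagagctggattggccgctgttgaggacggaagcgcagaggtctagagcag

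**Figure D3:**
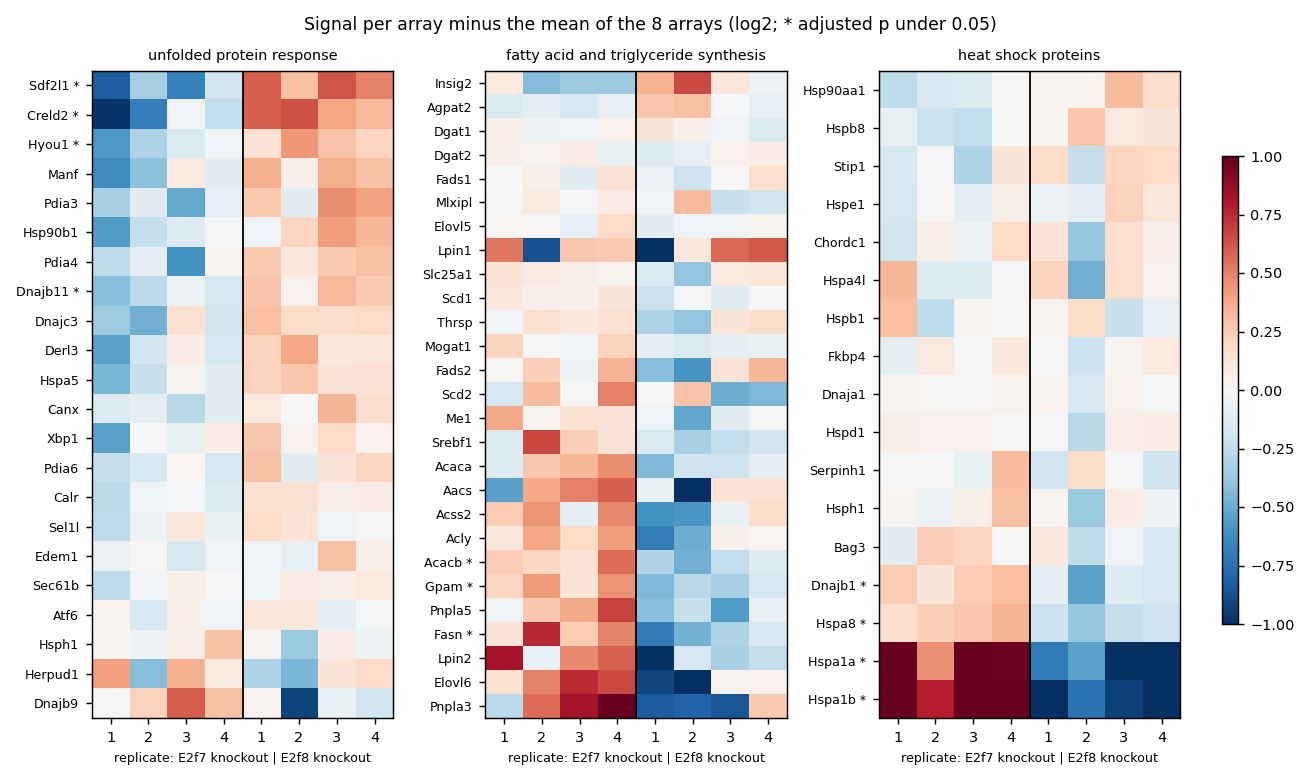
Log2 signal per array minus the mean of the 8 arrays (colour, ends at -1 and 1) for the genes of 3 lists, with E2f7 knockout replicates left of the black line and E2f8 knockout replicates right of it; stars mark genes that passed. Most endoplasmic reticulum chaperones have a negative difference (19 of 22) and most lipogenic genes a positive one (25 of 27), and 4 heat shock genes stand out from the rest of their list.

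Cytosolic heat shock genes that passed ran opposite to the chaperones of the endoplasmic reticulum. Of 17 measured genes, 4 passed (1.29% of all genes did), all higher after E2f7 loss, while the median was 0.05. Hspa1b, an inducible HSP70, read 9.37, 9.15, 9.47 and 9.50 against 7.22, 7.62, 7.43 and 7.13 (2.02, SE 0.12, adjusted p = 3.98e-06), and its 3 probe sets differed by 2.02 to 2.22. Hspa1a, its near-identical neighbour, read 7.24, 6.67, 7.43 and 7.19 against 5.52, 5.68, 4.96 and 5.02 (1.84, SE 0.19, adjusted p = 0.000653). The probes may not tell the copies apart, so the values of each are uncertain. Hspa8, the constitutive HSC70, was higher by 0.52 (SE 0.06, adjusted p = 0.00171), and the co-chaperone Dnajb1 by 0.47 (SE 0.10, adjusted p = 0.0489). The other Hspa8 probe sets differed by 0.29 to 0.37 without passing. Dnajb1 missed the threshold when any 1 array other than E2f8 knockout replicate 2 was left out (adjusted p from 0.0582 to 0.138). Hsp90aa1 had a difference of -0.28 (adjusted p = 0.14).

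The other groups at 3 weeks were spread for these genes. Hspa1b read 9.18, 10.42 and 8.21 in wild type and 9.34, 9.57, 7.93 and 8.37 in the double knockout. All 7 of these values lay above the E2f8 knockout, whose highest array was at 7.62. For Hspa1a, wild type ran from 5.01 to 8.15 and overlapped both knockouts. With the 15 arrays of 3 weeks in the fit, Hspa1b passed (adjusted p = 0.0202), whereas Hspa1a (0.0916), Hspa8 (0.0764) and Dnajb1 (0.489) did not.

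The promoter windows of the pair show how alike the copies are. They are 98.7% identical in RefSeq (GRCm38.p6), with 4 of 300 bases different, in capitals below (chr17:34972107-34972406 for Hspa1a and chr17:34959189-34959488 for Hspa1b, both on the minus strand). The heat shock element, searched as GAANNTTCNNGAA or TTCNNGAANNTTC on both strands, was in 0.603% of all windows, in 4 of the 15 heat shock genes with a window, in neither of these and in 1 of the 200 genes that passed.
Hspa1a: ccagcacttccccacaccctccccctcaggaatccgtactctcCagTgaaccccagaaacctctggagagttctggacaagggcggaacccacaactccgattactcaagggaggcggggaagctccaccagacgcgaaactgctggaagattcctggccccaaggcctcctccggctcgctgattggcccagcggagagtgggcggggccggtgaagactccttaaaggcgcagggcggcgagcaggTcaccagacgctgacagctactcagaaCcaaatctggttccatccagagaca
Hspa1b: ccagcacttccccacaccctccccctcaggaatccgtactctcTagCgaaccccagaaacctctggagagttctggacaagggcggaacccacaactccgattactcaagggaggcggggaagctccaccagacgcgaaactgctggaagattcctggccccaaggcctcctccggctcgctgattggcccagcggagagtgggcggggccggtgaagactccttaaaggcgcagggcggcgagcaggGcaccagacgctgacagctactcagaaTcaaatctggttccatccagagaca

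Genes of DNA replication, which atypical E2Fs repress, had mostly small positive differences. Of 49 measured genes, 40 were nominally higher after E2f7 loss (median 0.17), but 1 passed. In limma 18 of the 49 (36.7%) had an unadjusted p below 0.05, against 13.7% of all genes. Such an excess was not particular to this list. The shares of the 37 lists ran from 0% (T and NK cells) to 72.7% (unfolded protein response), with p53 targets at 43.5% and glycolysis and glycogen at 42.1%. Pola1, the catalytic subunit of DNA polymerase alpha, read 6.21, 6.21, 6.39 and 6.46 against 5.81, 5.60, 5.93 and 5.78 (0.54, SE 0.10, adjusted p = 0.0207), and it lost its call without E2f7 knockout replicate 3 or 4 and without E2f8 knockout replicate 4 (adjusted p from 0.0565 to 0.075). The helicase subunit Mcm6 had a difference of 0.84 and did not pass (adjusted p = 0.054). The mean over the list lay at 7.01 to 7.30 after E2f7 loss, 6.89 to 7.21 after E2f8 loss, 6.67 to 7.13 in wild type and 6.88 to 7.27 in the double knockout, with overlap between all groups.

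Of 18 genes of nucleotide synthesis, 2 passed and both were higher (median 0.10). Tk1, thymidine kinase 1, which is made in S phase, read 9.77, 9.71, 9.56 and 9.61 against 8.90, 9.26, 8.95 and 9.0 (0.64, SE 0.09, adjusted p = 0.00705). Wild type was at 9.50 to 9.69, above all E2f8 knockout arrays and overlapping the E2f7 knockout. Shmt2, the mitochondrial enzyme that feeds serine into one-carbon metabolism, differed by 0.44 (SE 0.08, adjusted p = 0.0208) and lost its call without E2f7 knockout replicate 1, 2 or 4 and without E2f8 knockout replicate 4 (at most 0.076). Of 61 mitosis genes 10 had an unadjusted p below 0.05 (16.4%, against 13.7% of all genes). None passed in limma, 33 were nominally higher and the median was 0.02. Kif20b (0.32, adjusted p = 0.105) and Cenpk (0.58, adjusted p = 0.104) came nearest. Of 26 repair and checkpoint genes 7 had an unadjusted p below 0.05 (26.9%). None passed in limma (21 nominally higher, median 0.12), with Chek1 at 0.35 and Fanca at 0.27 (adjusted p = 0.181 and 0.184).

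Of 20 cyclins, CDKs and inhibitors 1 passed, Cdk6, a G1 kinase (0.54, SE 0.10, adjusted p = 0.0225; all 4 E2f8 knockout arrays lay below the 11 others). Cdk6 lost its call without E2f7 knockout replicate 2 or 4 and without E2f8 knockout replicate 3 or 4 (at most 0.0789). Of 23 p53 targets, 3 passed (1.29% of all genes did), all higher after E2f7 loss (median 0.23). These were the antiproliferative gene Btg2 (0.70, SE 0.12, adjusted p = 0.0176), Phlda3 (0.47, SE 0.09, adjusted p = 0.0317) and the translesion polymerase Polk (0.42, SE 0.09, adjusted p = 0.0353). The best known targets Cdkn1a (-0.67, adjusted p = 0.36) and Mdm2 (0.04, adjusted p = 0.90) did not pass. Phlda3 and Polk lost their calls when any 1 array other than E2f8 knockout replicate 2 was left out (at most 0.0955 and 0.0995), and Btg2 without E2f7 knockout replicate 4 and without E2f8 knockout replicate 3 (at most 0.0702).

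An E2F site (TTTCCCGC, TTTGGCGC, TTTCGCGC or TTTGCCGC, both strands) was in 2.26% of all windows, in 18 of the 41 replication genes with a window, in 5 of 10 E2F family genes and in 14 of the 200 genes that passed. The window of Pola1 (chrX:93632106-93632405, minus strand), the replication gene that passed, held 1 match, shown in capitals on the strand where it reads in reverse. That of E2f8 (chr7:48881547-48881846, minus strand), printed as the targeted gene with a higher signal, held none of these letters.
Pola1: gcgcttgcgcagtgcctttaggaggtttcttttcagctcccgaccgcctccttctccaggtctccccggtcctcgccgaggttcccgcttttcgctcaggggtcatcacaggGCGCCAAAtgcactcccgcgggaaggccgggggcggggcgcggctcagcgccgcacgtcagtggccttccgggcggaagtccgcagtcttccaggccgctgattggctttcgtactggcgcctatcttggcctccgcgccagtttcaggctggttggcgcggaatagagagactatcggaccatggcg
E2f8: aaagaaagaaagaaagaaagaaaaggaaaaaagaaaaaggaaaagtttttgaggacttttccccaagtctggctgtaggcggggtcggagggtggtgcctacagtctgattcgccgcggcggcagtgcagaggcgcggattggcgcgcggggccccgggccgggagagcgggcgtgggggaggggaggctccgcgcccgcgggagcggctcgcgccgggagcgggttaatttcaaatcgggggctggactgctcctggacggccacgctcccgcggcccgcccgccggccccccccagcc

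**Figure D4:**
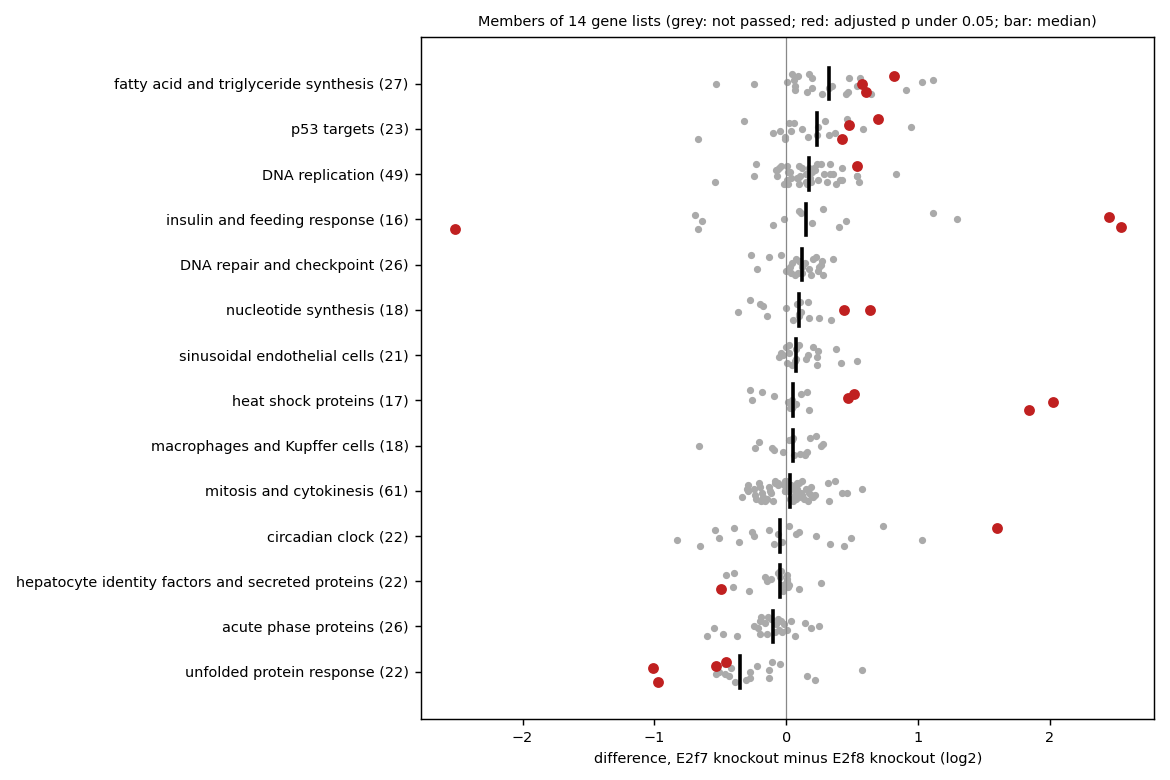
Differences (horizontal axis, log2, positive where the E2f7 knockout is higher) of the measured genes of 14 lists, with the number of genes in brackets; red points passed and bars are medians. The medians run from -0.35 for the unfolded protein response to 0.32 for fatty acid and triglyceride synthesis.

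The circadian clock list did not shift as a whole. Of 22 measured genes, 10 were nominally higher after E2f7 loss (median -0.05, with a sign that turned in some alternatives), and 1 passed. Per3, a period gene of the clock's output limb, read 8.21, 8.65, 8.51 and 8.65 against 6.17, 6.61, 7.31 and 7.53 (1.60, SE 0.25, adjusted p = 0.00948). The 6 Per3 probe sets differed by 0.20 to 2.82. Arntl (-0.65), Npas2 (-0.54) and Clock (-0.51), which drive the cycle, and Nr1d2 (1.03), which represses them, did not pass (adjusted p from 0.11 to 0.41). The time of day of collection is not in the labels. The D-box, bound by DBP, TEF, HLF and NFIL3, was searched as TTATGTAA or TTACGTAA on both strands. It was in 1.06% of all windows, in 1 of the 19 clock genes with a window, and in 3 of the 200 genes that passed. The gene was Per3, whose window (chr4:151044616-151044915, minus strand) holds 2, in capitals. The E-box CACGTG, the site of CLOCK and BMAL1, was in 7.15% of all windows and in 16 of the 200. All 5 motifs were chosen with the values known, a match is no more than a run of letters, and nothing follows from a missing one.
Per3: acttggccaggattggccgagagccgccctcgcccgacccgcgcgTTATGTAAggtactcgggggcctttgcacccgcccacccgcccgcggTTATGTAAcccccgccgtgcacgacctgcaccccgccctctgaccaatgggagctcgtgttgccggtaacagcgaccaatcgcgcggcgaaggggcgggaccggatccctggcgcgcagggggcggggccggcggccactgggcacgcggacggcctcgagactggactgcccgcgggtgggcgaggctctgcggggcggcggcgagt

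Amino acid and stress genes moved both ways. Of 25 genes of the integrated stress response and amino acid synthesis, Shmt2 and Chac1 were higher after E2f7 loss and Cbs was lower (median -0.11). Cbs, cystathionine beta-synthase of the transsulphuration pathway, read 10.76, 10.90, 10.83 and 10.999 against 11.61, 11.91, 11.64 and 11.65 (-0.83, SE 0.08, adjusted p = 0.000653). A second Cbs probe set differed by -0.83 as well. Wild type lay at 10.75 to 11.30, so the E2f8 knockout was the group above.

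Of 30 interferon genes, Gbp2 was higher (0.53, adjusted p = 0.028) and Ifit1 (-0.70, adjusted p = 0.0309) and Usp18 (-0.64, adjusted p = 0.011) lower after E2f7 loss (median -0.03). Ifit1 lost its call when any 1 array other than E2f8 knockout replicate 2 was left out (adjusted p at most 0.106). Gbp2 did so for any array other than E2f7 knockout replicate 3 and E2f8 knockout replicate 2 (at most 0.0817). Of 26 acute phase genes 7 had an unadjusted p below 0.05 (26.9%, against 13.7% of all genes). None passed in limma (6 nominally higher, median -0.10), with Apcs at -0.24 and Lbp at -0.48 (adjusted p = 0.108 and 0.0875).

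Of 15 growth hormone and IGF genes, Igfbp1 was higher and Stat5a lower (-0.52, adjusted p = 0.0256; median 0.11). Stat5a lost its call without E2f7 knockout replicate 2, 3 or 4 and without E2f8 knockout replicate 1 or 3 (at most 0.0916). Female-biased (17 measured, median 0.00) and male-biased (16, median 0.10) liver genes, 31 xenobiotic genes (0.03), 18 pericentral genes (-0.03) and 23 fetal liver genes (0.03) had none that passed in limma. At an unadjusted p below 0.05 they held 7, 5, 9, 4 and 5 genes in that order. Their shares were 41.2%, 31.2%, 29%, 22.2% and 21.7%, against 13.7% of all genes. The nearest were Cyp2b13 (1.88, adjusted p = 0.169) and Cyp3a44 (-0.64, 0.12), Cyp2u1 (-0.35, 0.174), Sult1d1 (0.43, 0.146), the Wnt targets Axin2 (-0.49, 0.0777) and Rnf43 (-0.66, 0.101), and the imprinted gene Mest (0.47, 0.109) with Cd24a (0.46, 0.176). Hsd3b7, a bile acid synthesis enzyme, was lower after E2f7 loss (-0.34, adjusted p = 0.0409) as 1 of 25 genes of its list (median 0.07), with its call lost when any array other than E2f8 knockout replicates 2 and 4 was left out (at most 0.127). Hal, which breaks down histidine, was lower (-0.47, adjusted p = 0.0176) as 1 of 15 periportal genes (median -0.06), lost without E2f7 knockout replicate 3 or 4 and without E2f8 knockout replicate 3 (at most 0.068).

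Hepatocyte factors and secreted proteins had small differences. Of 22 measured genes 1 passed, the transcription factor Foxa3 (-0.50, adjusted p = 0.0276), which lost its call when any 1 array other than replicate 2 of either group was left out (at most 0.0922). The median was -0.04, and albumin differed by -0.02 (adjusted p = 0.87).

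Markers of the other cell types of liver did not pass, with 1 exception. None passed among 18 macrophage, 21 endothelial, 18 stellate, 9 cholangiocyte, 16 T and NK cell, 11 B cell, 11 dendritic and 11 neutrophil markers in limma, with 2, 3, 4, 0, 0, 1, 2 and 2 at an unadjusted p below 0.05. The shares were 11.1%, 14.3%, 22.2%, 0%, 0%, 9.09%, 18.2% and 18.2% in that order, against 13.7% of all genes. Mean signals of the lists overlapped between the knockouts: 6.73 to 7.17 against 6.63 to 7.30 for macrophages, 7.65 to 7.80 against 7.34 to 7.95 for endothelium, and 8.19 to 8.37 against 7.89 to 8.47 for stellate cells. The others lay at 4.77 to 4.95 against 4.84 to 4.97 (cholangiocytes), 4.87 to 5.05 against 4.88 to 5.00 (T and NK cells), 5.00 to 5.17 against 4.91 to 5.09 (B cells), 6.07 to 6.34 against 5.92 to 6.22 (dendritic cells), 4.93 to 5.08 against 5.01 to 5.14 (neutrophils) and 5.13 to 5.22 against 5.07 to 5.14 (erythroid cells). Medians were 0.05, 0.07, 0.09, 0.02, 0.08, 0.07, 0.15, 0.00 and 0.12 in that order. Positive differences were found for 12, 18, 13, 5, 10, 8, 11, 5 and 11 markers, that is for 18 of 21 endothelial and all 11 dendritic cell and MHC class II markers, against 9274 of all 18193 genes. The part of these cell types in the other differences was not tested. The stellate marker Lum, an extracellular matrix proteoglycan, came nearest to the threshold (0.77, adjusted p = 0.0726), followed by the neutrophil protein S100a8 (-0.46, 0.0983). The other markers nearest in their lists were Reln (0.25), S100a9 (-0.34), Spic (-0.23), Cd163 (-0.66), Fcgr2b (0.41), Bmp2 (0.54), Krt7 (0.16), Prom1 (-0.55), Gzmb (0.16), Klrd1 (0.20), Blnk (0.53), Cd22 (0.13), Ciita (0.23) and H2-DMa (0.31), with adjusted p-values from 0.182 to 0.601. The exception was Tfrc among 14 erythroid markers, of which 5 (35.7%) had an unadjusted p below 0.05 in limma. Alas2 had a difference of 0.46 with the opposite sign (adjusted p = 0.157). In whole liver, fewer cells of a type and less RNA per cell cannot be told apart.

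The comparison of ages asked which differences between the knockouts at 3 weeks were also present at 2 months. At 2 months 23 genes passed (0.126%, with 1792 at an unadjusted p below 0.05), and 7 passed at both ages, all in the same direction. These were E2f8, Gm2788, Trhde, Pcsk6, Abcc6, Rassf3 and 0610005C13Rik. Trhde differed by 2.19 and then 1.73, Pcsk6 by 1.39 and 1.15, Abcc6 by 1.19 and 0.69, Rassf3 by 0.64 and 0.85, and 0610005C13Rik by 0.99 and 0.93. Angptl8 (-2.52 and -1.69, adjusted p = 0.24 at 2 months) and B4galnt1 (3.60 and 2.98, adjusted p = 0.16) kept their direction without passing at 2 months.

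In a test of the change itself, over 16 arrays, the difference depended on age in 58 genes (0.319%), 34 (0.187%) more positive and 24 (0.132%) more negative at 3 weeks, and 44 of the 58 were among the 235. The count ran from 7 to 83 when 1 array was left out. The lowest counts came without E2f7 knockout replicate 4 (7) and E2f8 knockout replicate 3 (9) of 3 weeks. It was also outside a factor of 1.5 without E2f7 knockout replicate 3 (24) and E2f8 knockout replicate 4 (38) of 3 weeks and without E2f7 knockout replicates 1 and 2 (16 and 30) and E2f8 knockout replicates 2 and 4 (26 and 34) of 2 months. With all 35 arrays in 1 fit, 9 genes passed. Since 7 genes in all passed without E2f7 knockout replicate 4 of 3 weeks, most of the genes named below for age lost their call there. The deposited values of the ages also have different distributions. Sorted values were on average 0.80 apart between the ages and 0.03 within the 8 arrays. Levels are therefore not compared across ages, only differences within each.

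The difference in the heat shock pair changed sign with age. Hspa1b differed by 2.02 at 3 weeks and by -0.997 at 2 months (change 3.02, SE 0.34, adjusted p = 0.00076), and Hspa1a by 1.84 and -0.72 (change 2.56, adjusted p = 0.021). The 2-month values alone did not pass. Rgs16 (2.45 and -0.72, change 3.17, adjusted p = 0.038) had the same layout. Metabolic genes that passed at 3 weeks but not at 2 months, and whose difference depended on age, included the guanine deaminase Gda (0.77 and -0.07), the creatine-making enzyme Gamt (0.50 and -0.15), Cbs (-0.83 and 0.00) and Tk1 (0.64 and 0.01), with adjusted p-values of the change from 0.021 to 0.023. Fam47e (0.90 and -0.13), Plce1 (0.73 and -0.05) and Dsg2 (0.28 and -0.37) were also more positive at 3 weeks. Sgk2 (-0.88 and 0.49), the antimicrobial peptide gene Leap2 (-0.88 and 0.09), Tspyl4 (-0.87 and 0.01), the splicing factor Srsf5 (-0.54 and 0.13), Ubxn1 (-0.50 and 0.08) and Iffo1 (-0.45 and 0.11) were more negative. Mup10, a major urinary protein gene with many near-identical copies, differed by -0.66 and 0.81, and its probe set may read several of them. E2f8 (-1.23 and -2.75) differed more at 2 months, and Gm2788 (4.03 and 2.72) less.

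**Figure D5:**
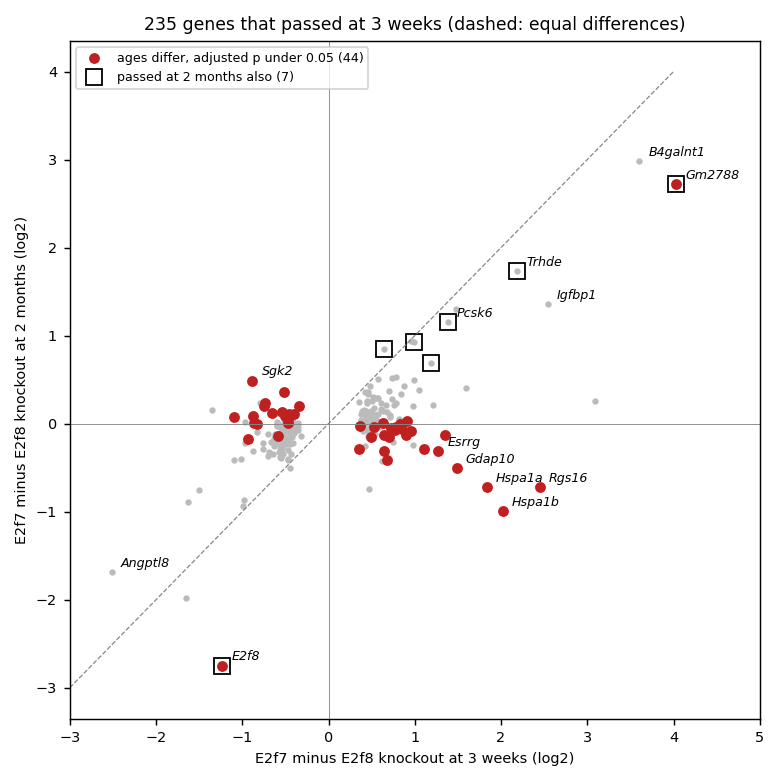
Difference between the E2f7 and the E2f8 knockout at 3 weeks (horizontal axis, log2) and at 2 months (vertical axis, log2) for the 235 genes that passed at 3 weeks; red points are the 44 whose difference depended on age and squares the 7 that passed at both ages. Gm2788, Trhde and Pcsk6 lie in the upper right, E2f8 in the lower left, and Hspa1b, Hspa1a and Rgs16 below 0 at 2 months.

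The genes that differed at both ages lay on the chromosomes of the floxed genes, at varied distances from them. In the gene order of RefSeq (GRCm38.p6; 18145 of the 18193 genes matched), the 6 genes other than E2f8 were all on the chromosome of E2f7 or on that of E2f8. Gm2788 overlapped E2f8, and 32, 53 and 59 measured genes lay between E2f8 and Abcc6, Pcsk6 and 0610005C13Rik. Between E2f7 and Trhde lay 14 measured genes, and between E2f7 and Rassf3 68. Of the 300 measured genes nearest to E2f7 (150 on each side), 13 passed at 3 weeks (4.33%), and of the 300 nearest to E2f8 11 did (3.67%). On all other chromosomes 188 of 15860 passed (1.19%). B4galnt1, Inhbe, Hal and Shmt2 were among the 13 near E2f7, and Bcat2 and Atf5 among the 11 near E2f8. Of those near E2f7, Trhde, Rassf3, B4galnt1 and Shmt2 were lower in the E2f8 knockout than in every other array of 3 weeks. Sdr9c7 was higher there than in every other array, and neither knockout stood apart in this way for the rest. The window of 150 genes was chosen after the values were seen, and the part that the position of these genes plays in their difference was not tested. Loss of a gene and sequence that came with its floxed allele cannot be told apart in these groups.

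Some genes named by earlier results of these data for other contrasts did not differ between the single knockouts in a way that passed. Akr1c14 (-0.02), Aldh6a1 (-0.14), C1d (-0.14), Ephb6 (0.00), Gstt2 (0.01), Mettl21a (0.14), Npl (0.38), Nutm1 (-0.23), Tars (-0.26), Tnfsf13b (-0.21) and Yae1d1 (0.04) had adjusted p-values from 0.118 to 0.995. Akr1c14 lay at 10.43 to 10.74 after E2f7 loss, 10.40 to 10.85 after E2f8 loss and 11.20 to 11.38 in wild type, so the single knockouts overlapped fully and both stayed below wild type. Ildr2 (-0.76, adjusted p = 0.142), Slc16a6 (-0.70, adjusted p = 0.11) and Hsd3b1 (-0.83, adjusted p = 0.312) had larger differences with spread-out arrays. Hsd3b1 read 8.11, 7.40, 9.31 and 9.34 in the E2f8 knockout against 7.52 to 7.85 in the E2f7 knockout.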

How the data were processed

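RNA of whole liver was hybridised to Affymetrix mouse arrays. The authors deposited log2 signals made by RMA, per the submitters' processing notes (no version or annotation is given in the sources used here); the log2 scale follows from the values. Of 45101 probe sets, 34945 have 1 gene symbol, 932 several and 9160 none, and 64 are controls. Of several probe sets of a gene, the brightest on average across the 35 arrays was used, which left 18193 genes. The 8 arrays were fitted with limma 3.58.1 (R 4.3.3; lmFit, then eBayes with an intensity trend), with Benjamini-Hochberg adjustment over all genes. The change with age was the interaction in a fit of 16 arrays. Fold values are 2 to the power of the size of the difference. The number of arrays limits the precision. The fit was also tested on simulated data. The members and lists were chosen with earlier results of these data known. Named were the E2F family, the 15 largest differences in each direction without overlap (unnamed clones left out), up to 4 genes of each of 37 lists that passed or otherwise the nearest 2 by p, the 8 smallest p-values of each sign for age, and 22 genes earlier results had named. Slc30a1, Gna14 and Rassf3, the list members beyond these and the neighbours of E2f7 and E2f8 were chosen after their values were seen. Genes of the lists with no probe set of a single symbol were not analysed here. The labels name no pairing by replicate number. Correlations of same-numbered deviations were -0.154 to 0.00469, and those of other pairs -0.107 to 0.213. These values cannot tell whether samples shared a litter or a day.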

Additional observations from a re-analysis of the deposited data

Results flagged for a closer look

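In 17 of 254 sets of 4 arrays (127 named genes in the groups E2f7 knockout and E2f8 knockout), 1 array lay far from the other 3, with a gap to the nearest of them, as a share of the group's range, above Dixon's 95% critical value. Chance alone would flag about 5% of such sets. Replicate 2 of the E2f8 knockout was the distant array in 7 of the 17. It was highest for Cbs (0.863), Rb1 (0.874) and Sult1d1 (0.865) and lowest for Cnmd (0.837), Dnajb1 (0.851), Hspa8 (0.894) and Pdzrn3 (0.887). Replicate 1 of that group was distant for B4galnt1 (highest, 0.83) and for Ppp1r3b (0.866), Rbl2 (0.888) and Rgs16 (0.988), lowest in each, and replicate 4 for Tspyl4 (lowest, 0.847). In the E2f7 knockout the distant arrays were replicate 1 for Cd24a (0.856) and Lbp (0.983), highest in both, replicate 2 for E2f2 (highest, 0.843), replicate 3 for Sgk2 (lowest, 0.86) and replicate 4 for E2f5 (lowest, 0.907).

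The difference between the knockouts changed with age by the interaction test in 16 named genes. The change (3 weeks minus 2 months, log2) was 3.02 for Hspa1b, 2.56 for Hspa1a, 1.03 for Fam47e, 0.85 for Gda, 0.78 for Plce1, 0.65 for Dsg2, 0.65 for Gamt and 0.62 for Tk1. It was -1.46 for Mup10, -1.37 for Sgk2, -0.97 for Leap2, -0.87 for Tspyl4, -0.83 for Cbs, -0.67 for Srsf5, -0.58 for Ubxn1 and -0.57 for Iffo1. All 16 were tested with limma over 18193 genes. Without E2f7 knockout replicate 4 of 3 weeks 7 genes passed in all, and without E2f8 knockout replicate 3 of 3 weeks 9. More of the 16 therefore lost their call without that E2f7 knockout array than kept it. Other named genes also passed this test, among them Rgs16 (3.17), E2f8 (1.52) and Gm2788 (1.31).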

How the results depend on the processing

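The number of genes that passed at 3 weeks (235) was 137 with all 15 arrays of 3 weeks in the fit, 451 with array weights, 175 with the replicate block, and 103 to 438 when 1 array was left out. The other alternatives gave 166 to 349. The number whose difference depended on age (58) was 9 with all 35 arrays in the fit, 60 with the replicate block and 7 to 83 when 1 array was left out. Without E2f7 knockout replicates 3 and 4 of 3 weeks it was 24 and 7, without E2f8 knockout replicates 3 and 4 of 3 weeks 9 and 38, without E2f7 knockout replicates 1 and 2 of 2 months 16 and 30, and without E2f8 knockout replicates 2 and 4 of 2 months 26 and 34. The difference in 3' minus 5' signal kept its sign with Gapdh or Actb alone. The labels name no pairing by replicate number, so the block was used as an alternative only. Of 66 named genes that passed, none reversed in the 17 alternatives, 24 passed in all of them and 39 in every fit that left out 1 array. The reversals were in named genes that did not pass and lay near 0. With 1 array left out, the difference ran from -0.1035 to 0.047 for Akr1c14, -0.0855 to 0.1193 for E2f3, -0.0476 to 0.0409 for E2f4, -0.0815 to 0.0591 for E2f6, -0.152 to 0.0951 for Ephb6, -0.0889 to 0.1717 for Gstt2, -0.0028 to 0.1365 for Rbl2 and -0.0172 to 0.1025 for Yae1d1. E2f4 also reversed with quantile normalization (0.0105), E2f5 with the mean of all probe sets (-0.0982), and E2f6 with the mean of all probe sets (-0.0501) and array weights (-0.0237). The cause of these changes was not tested. The signs of the circadian, mitosis and macrophage medians turned in some alternatives.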
